A study of Mus musculus with 549 samples.

Results

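Scx, Mkx, Tnmd, Thbs4 and Col14a1 are 5 genes known from tendon and ligament. They were found by symbol in 12 tables of 3′ RNA sequencing from mouse cartilage of the tibia, its cortical and cancellous bone and the inguinal lymph node, each of which listed 23385 genes. All mice were male C57BL/6J. Before loading, mice had received a fragment of parathyroid hormone (PTH) or saline vehicle for several weeks, and unloaded mice of both pretreatments were sampled at 26 weeks of age. In the remaining mice the left tibia was compressed cyclically for 1 or 2 weeks, and tissue was taken at 27 or 28 weeks of age from the loaded limb and from the unloaded right limb, called contralateral here. During loading the mice received either alendronate, a bisphosphonate that inhibits osteoclasts, or saline. There were thus 4 treatments after loading: PTH before loading and saline during it (PTH mice), saline and then alendronate (alendronate mice), PTH and then alendronate (PTH-alendronate mice), and saline throughout (vehicle mice). Each library came from 1 limb of 1 mouse. The contralateral limb shared the mouse's drug exposure with the loaded limb, so comparing the limbs held drug constant. The loaded limb was always the left, so within loaded mice loading and limb side cannot be told apart. Left and right limbs of unloaded mice were both sampled, but the difference between them is not given here.

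Scx (scleraxis, a basic helix-loop-helix factor) and Mkx (mohawk, a homeobox factor) are transcription factors that mark tendon progenitors and shape tendon matrix genes. Tnmd (tenomodulin) is a membrane glycoprotein of tendon cells and is known to act downstream of Scx. Thbs4 is a secreted pentameric thrombospondin that binds collagen in tendon, and Col14a1 encodes the chain of collagen XIV, which sits on the surface of collagen fibrils. In and around the knee such genes are known from ligaments, tendon insertions, joint capsule and meniscus, which border the tibial cartilage.

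Positions are in the mouse genome build GRCm38. Scx lies on chromosome 15 from 76457452 to 76459458 on the plus strand, wholly inside Bop1, which runs on the opposite strand from 76452989 to 76477277. Whether the counting used strand is not given in the sources used here, so reads of Scx and Bop1 may be mixed, and Bop1 is given beside Scx. Col14a1 lies on chromosome 15 from 55307750 to 55520803 on the plus strand and overlaps minor antisense genes. Tnmd lies on chromosome X from 133850980 to 133865577 on the plus strand, and Thbs4 on chromosome 13 from 92751590 to 92794818 on the minus strand.

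Promoter windows of 2 of the 5 genes matched by symbol and are shown: Tnmd, the member called most often in loaded cartilage, and Thbs4, the member called in cartilage of PTH mice before loading. The windows run from 250 bases before to 50 bases after the RefSeq start in build GRCm38.p6, in the direction of the gene, at chrX:133850758-133851057 for Tnmd and chr13:92794769-92795068 for Thbs4. Capitals mark each E-box, CANNTG, the letters that basic helix-loop-helix factors such as scleraxis bind, a motif that reads the same on both strands and had no overlapping match here.
Tnmd: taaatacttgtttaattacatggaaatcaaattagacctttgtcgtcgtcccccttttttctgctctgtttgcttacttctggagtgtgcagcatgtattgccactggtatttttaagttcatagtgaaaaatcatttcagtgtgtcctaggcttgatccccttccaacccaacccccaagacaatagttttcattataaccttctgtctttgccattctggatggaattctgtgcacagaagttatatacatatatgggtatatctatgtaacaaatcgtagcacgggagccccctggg
Thbs4: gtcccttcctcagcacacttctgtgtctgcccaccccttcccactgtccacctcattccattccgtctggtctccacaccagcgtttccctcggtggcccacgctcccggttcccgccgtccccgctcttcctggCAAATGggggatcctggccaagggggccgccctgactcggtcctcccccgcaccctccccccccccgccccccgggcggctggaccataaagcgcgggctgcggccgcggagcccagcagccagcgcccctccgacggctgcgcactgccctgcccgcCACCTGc
The Thbs4 window held 2 matches, CAAATG and CACCTG, and these letters were not in the Tnmd window. Of 32851 mouse promoter windows of 300 bases, 72.3% held at least 1 match and 39.6% at least 2, so a match here is a description of the sequence and no sign of binding.

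The 505 libraries held 3630 to 3557793 reads assigned to genes, with a median of 1551090, and 28 held fewer than 100000. In cartilage there were 16 libraries from 8 mice for each pretreatment before loading and 5 to 8 libraries per limb and treatment after it. The tissue labels were checked against markers. Summed lymphocyte markers had medians from 1190 to 1290 CPM (counts per 1000000 reads) in the lymph node tables and of 110 or less in the others. Single libraries reached 687 CPM in cartilage at 1 week, 1110 CPM in cartilage at 2 weeks and 786 CPM in cancellous bone at 1 week. The lowest lymph node libraries had 786 CPM before loading and 839 CPM at 2 weeks, so not every library was separated. All were kept under their labels. Chondrocyte markers were present in cartilage and also in both bones, and osteoblast markers were present in cartilage, so neither separated cartilage from bone. In 1 library labelled lymph node, from the contralateral side of a vehicle mouse at 1 week (replicate 1), lymphocyte markers summed to 138 CPM against 1060 to 1650 in the other 43 of that table, and osteoblast markers to 3640 against 10.0 to 36.4. All libraries are bulk tissue, in which fewer cells of a type and less RNA per cell cannot be told apart.

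Across tissues, Thbs4 and Col14a1 were the abundant members in cartilage, and Scx, Mkx and Tnmd were low in all tissues before loading. Tables were scaled separately, so these levels are given in CPM, a scale shared by all tables, with no test between tissues. In vehicle mice before loading, Thbs4 had a median of 78.5 CPM in cartilage (36.0 to 305, n = 15 libraries of at least 100000 reads). It had medians of 43.3 CPM in cortical bone (2.48 to 99.9, n = 7), 6.22 CPM in cancellous bone (0 to 34.8, n = 7) and 0.751 CPM in lymph node (0 to 7.61, n = 16). The ranges of cartilage and cortical bone overlapped, whereas every cartilage library lay above every cancellous bone and lymph node library. Col14a1 had a median of 71.2 CPM in cartilage (34.8 to 192), and all cartilage libraries were at or above the highest value of the other tissues. Its medians were 12.4 CPM in lymph node, 9.95 CPM in cancellous bone and 9.00 CPM in cortical bone, which overlapped one another.

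Tnmd was the low member whose median was higher in cortical bone, 5.91 CPM (2.07 to 11.1), than in cartilage, 2.63 CPM (0 to 13.8), with overlapping ranges. Scx likewise had a median of 2.95 CPM in cortical bone and 1.45 CPM in cartilage, and Mkx was at 1.5 CPM in cortical bone, 1.48 CPM in cartilage and 1.21 CPM in cancellous bone. In lymph node Mkx had no read in any of the 32 libraries of unloaded mice, and Tnmd had none in 31 of them. These low levels are a few reads a library: in the 30 cartilage libraries of at least 100000 reads before loading, the median was 4.5 reads of Tnmd, 3.5 of Scx and 3 of Mkx, against 169 of Thbs4 and 116 of Col14a1.

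**Figure D1:**
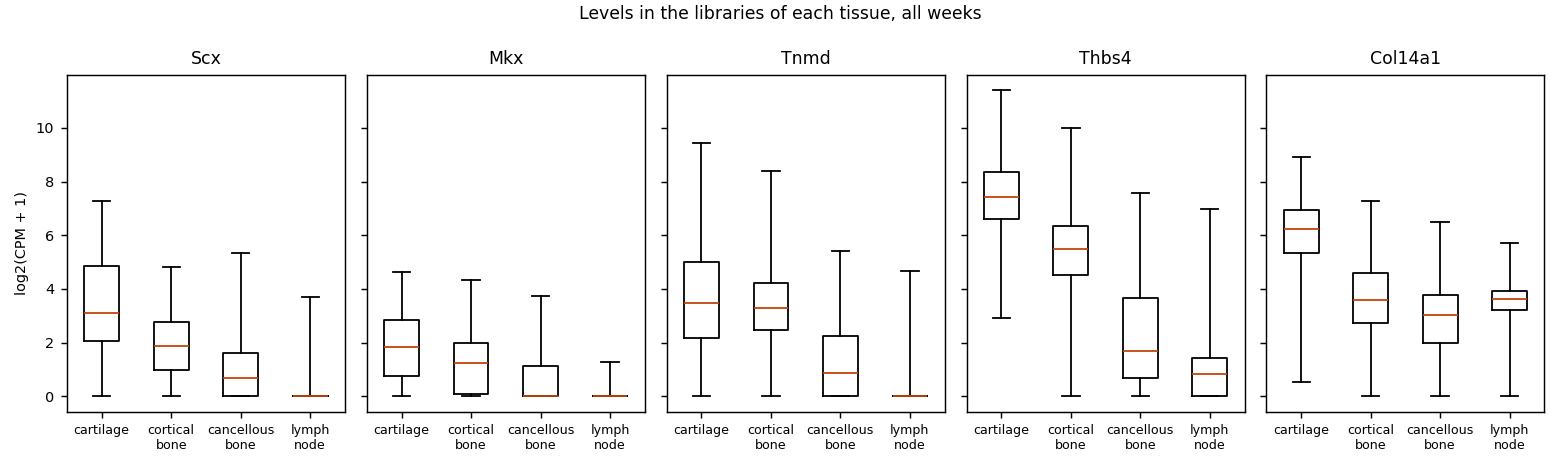
Level of each gene as log2(CPM + 1) in the libraries of at least 100000 reads of each tissue, with all treatments, limbs and weeks together. Boxes span the quartiles, the line is the median and whiskers reach the lowest and highest library. Thbs4 and Col14a1 were highest in cartilage, and Mkx was at 0 in nearly all lymph node libraries.

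In cartilage, Tnmd and Scx were the members most often called higher after loading, in 5 and 4 of 8 comparisons, while Thbs4 and Col14a1 were called in 1 each and Mkx in 0. All 5 genes passed the filter on low values in the cartilage tables. Of 40 loading differences (5 genes, 4 treatments and 2 times), 39 were positive and 11 passed an adjusted p of 0.05 in limma, all of them higher in the loaded limb. At 1 week the members called were Scx in PTH mice, Scx and Tnmd in alendronate mice, Scx and Col14a1 in PTH-alendronate mice, and none in vehicle mice. The share of all 14729 genes tested that was called higher was 2.33% in PTH, 4.41% in alendronate, 7.13% in PTH-alendronate and 1% in vehicle mice. At 2 weeks the members called were Scx, Tnmd and Thbs4 in PTH mice, and Tnmd in each of alendronate, PTH-alendronate and vehicle mice. The share of 14943 genes called higher was then 2.76% in PTH, 2.59% in alendronate, 3.33% in PTH-alendronate and 0.95% in vehicle mice. The main fit took each mouse as a random block. In a second fit that paired limbs by replicate number, the 11 member calls were kept. Genes called in either direction at 2 weeks then numbered 256 in alendronate mice (588 in the main fit) and 361 in PTH-alendronate mice (571). Values below are the deposited normalised counts, given as lowest, median and highest library of a group. Differences are on the scale log2(value + 1), loaded minus contralateral, with their standard error, and this scale understates the change of low genes.

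**Figure D2:**
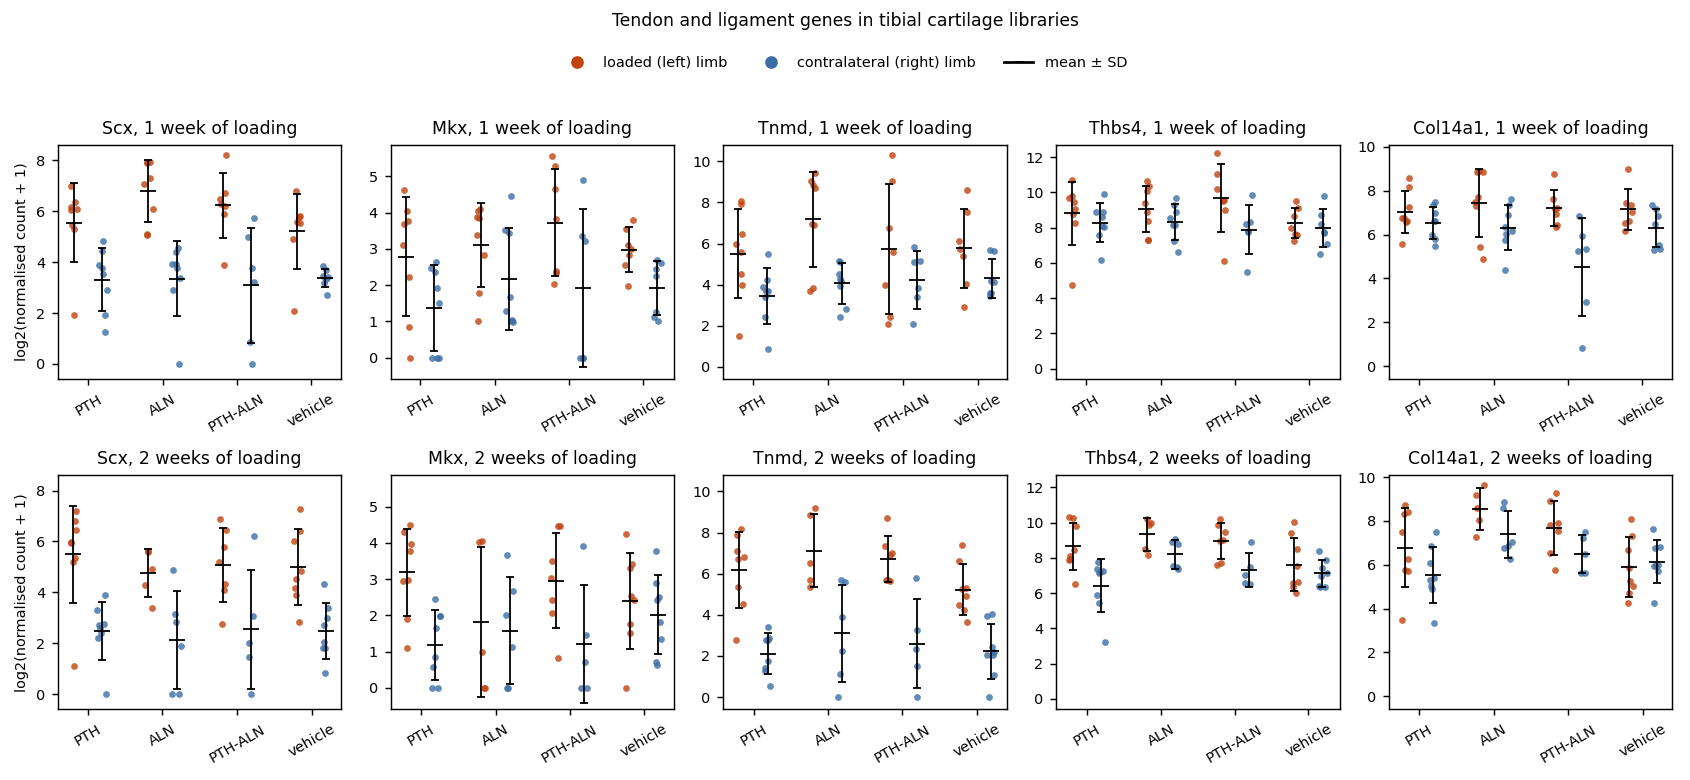
Each point is 1 cartilage library, on the scale log2(normalised count + 1), in loaded limbs (orange) and contralateral limbs (blue) of PTH, alendronate (ALN), PTH-alendronate and vehicle mice after 1 week (top) and 2 weeks (bottom). Black marks are the group mean and SD. Tnmd at 2 weeks and Scx at both times show the widest gaps between the limbs.

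Scx, the tendon progenitor factor, had 2.83, 65.8 and 128 normalised counts in loaded limbs of PTH mice at 1 week, against 1.36, 11.6 and 27.5 in their contralateral limbs (n = 8 each). All loaded limbs but 1 were above the highest contralateral limb. The difference was 2.23 ± 0.64 (adjusted p = 0.0403), and it lost its call in 9 of 16 fits that each left out 1 library (loaded replicates 1 to 5 and 8, contralateral replicates 1, 7 and 8), with an adjusted p of up to 0.112. In alendronate mice Scx had 32.9, 146 and 245 in loaded limbs and 0, 13.3 and 22.7 in contralateral limbs (n = 8 each). These groups did not overlap, and the difference was 3.45 ± 0.64 (adjusted p = 0.000134). In PTH-alendronate mice it had 13.8, 77.7 and 294 in loaded limbs (n = 7) and 0, 10.5 and 51.6 in contralateral limbs (n = 6), and differed by 3.13 ± 0.72 (adjusted p = 0.00223). Vehicle mice had 3.25, 47.2 and 109 in loaded limbs and 5.59, 9.63 and 13.3 in contralateral limbs (n = 7 each). There, all but 1 loaded limb lay above the contralateral range, and the difference of 1.84 ± 0.69 did not pass (adjusted p = 0.22, and 0.0296 by edgeR on the recovered reads).

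At 2 weeks Scx had 1.14, 61.2 and 146 in loaded limbs of PTH mice, against 0, 5.24 and 13.9 in contralateral limbs (n = 8 each). The groups were apart but for 1 loaded limb, and the difference was 3.02 ± 0.74 (adjusted p = 0.00921). In alendronate mice the 5 loaded limbs had 48.8, 46.8, 29.4, 18.8 and 9.46, against 0, 4.38 and 28.5 in 6 contralateral limbs. In PTH-alendronate mice the 7 loaded limbs had 5.83, 36.1 and 118, against 74.3, 0, 3.04, 1.75 and 7.49 in 5 contralateral limbs. Vehicle mice had 6.12, 24.7 and 155 in loaded limbs and 0.77, 4.33 and 19.3 in contralateral limbs (n = 8 each). In these treatments the limbs overlapped and the differences, 2.64 ± 0.90, 2.52 ± 0.87 and 2.51 ± 0.74, missed the threshold (adjusted p = 0.0755, 0.0814 and 0.0875, in the order alendronate, PTH-alendronate, vehicle). Each of them passed in at least 1 fit that left out 1 library. Without the contralateral limb at 74.3 (replicate 3) the PTH-alendronate adjusted p was 0.00892, and without contralateral replicate 1 the alendronate value was 0.0277. Vehicle Scx passed without loaded replicate 6 (adjusted p = 0.0432), by edgeR (0.00798) and with quantile scaling (0.00841), and PTH-alendronate Scx also without loaded replicate 5 (0.0481).

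Bop1, the ribosome biogenesis gene that contains Scx, was not called in any of these 8 comparisons. Its differences ran between -0.47 ± 0.55 in PTH-alendronate mice at 2 weeks and 0.92 ± 0.29 in PTH mice at 1 week (adjusted p = 0.0639). In alendronate mice at 1 week, where Scx differed most, Bop1 had a median of 62.3 in loaded limbs and 46.7 in contralateral limbs (0.42 ± 0.29).

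Mkx, the second transcription factor, was not called in any treatment or time, although 8 of 8 differences were positive. It was low throughout. In PTH mice at 2 weeks it had 1.14, 9.78 and 21.7 in loaded limbs, against 0, 1.46 and 4.47 in contralateral limbs (n = 8 each), and differed by 2.00 ± 0.66. The adjusted p was 0.0722, and 0.0382 in the fit that paired limbs by replicate number. It also passed by edgeR (0.046), with quantile scaling (0.0116) and without loaded replicate 6 (0.0212). In PTH-alendronate mice the differences were 1.8 ± 0.72 at 1 week (adjusted p = 0.1, and 0.0225 without contralateral replicate 1) and 1.74 ± 0.77 at 2 weeks (0.174, and 0.0432 without contralateral replicate 3). In vehicle mice they were 1.06 ± 0.69 and 0.39 ± 0.66, with adjusted p = 0.699 and 0.925.

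Tnmd, the tendon membrane glycoprotein, was the member called in all 4 treatments at 2 weeks. In PTH mice it had 5.85, 107 and 292 normalised counts in loaded limbs, against 0.475, 4.09 and 9.71 in contralateral limbs (n = 8 each), with overlap from 1 loaded limb only. The difference was 4.06 ± 0.75 (adjusted p = 0.000242). In alendronate mice the 5 loaded limbs had 579, 463, 90.6, 51.6 and 39.4, against 0, 8.84 and 50.7 in 6 contralateral limbs. That difference was 4.02 ± 0.91 (adjusted p = 0.00473). In PTH-alendronate mice the 7 loaded limbs had 49.6, 119 and 412, against 55.3, 0, 4.05, 8.74 and 1.87 in 5 contralateral limbs, and differed by 4.13 ± 0.88 (adjusted p = 0.00395). The 1 contralateral library without a read of Tnmd there (replicate 4) held 80131 reads in all. Without it the difference was 3.48 ± 0.91 and the call was lost (adjusted p = 0.0539 without libraries under 100000 reads, and 0.0898 by edgeR with all libraries).

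In vehicle mice at 2 weeks, Tnmd had 11.6, 33.1 and 166 in loaded limbs and 0, 3.34 and 15.5 in contralateral limbs (n = 8 each). The median of the loaded limbs lay above every contralateral limb. The difference of 3.00 ± 0.75 passed (adjusted p = 0.0228), but the call was lost without any 1 of 4 libraries: contralateral replicate 4 (0.0613), loaded replicate 4 (0.0793), loaded replicate 5 (0.103) and contralateral replicate 6 (0.0764). At 1 week the only Tnmd call was in alendronate mice, with 11.9, 268 and 682 in loaded limbs and 4.3, 17.9 and 34.6 in contralateral limbs (n = 8 each), and differed by 3.11 ± 0.86 (adjusted p = 0.0164). It was lost without loaded replicate 3 (0.0559), 7 (0.0516) or 8 (0.0509). In PTH-alendronate mice at 1 week Tnmd reached 1250 in 1 loaded limb while the median was 46.7, against 3.24, 23 and 55.6 in contralateral limbs. With that spread the difference was 1.49 ± 0.97 (adjusted p = 0.353, and 0.0145 by edgeR). In PTH and vehicle mice the 1-week differences were 2.04 ± 0.86 (adjusted p = 0.2) and 1.44 ± 0.92 (0.691).

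Thbs4, the matrix thrombospondin, was called once. In PTH mice at 2 weeks it had 91.5, 317 and 1280 in loaded limbs and 8.55, 144 and 217 in contralateral limbs (n = 8 each), and differed by 2.24 ± 0.54 (adjusted p = 0.00731) that passed whichever library was left out. In vehicle mice at 2 weeks the limbs were nearly level, at 63.9, 141 and 1040 in loaded limbs and 80.6, 131 and 335 in contralateral limbs (0.50 ± 0.54, adjusted p = 0.842). Among the other treatments the differences ran between 0.28 ± 0.64 in vehicle mice at 1 week and 1.77 ± 0.67 in PTH-alendronate mice at 1 week. The last missed the threshold (adjusted p = 0.0797) and passed without contralateral replicate 1 (0.0336), without loaded replicate 4 (0.00934) and by edgeR (0.0303). The PTH-alendronate value at 2 weeks, 1.66 ± 0.63 (adjusted p = 0.113), passed without contralateral replicate 3 (0.0413).

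Col14a1, the collagen XIV chain, was also called once, in PTH-alendronate mice at 1 week. It had 80.6, 144 and 439 in loaded limbs (n = 7) and 0.747, 38.3 and 114 in contralateral limbs (n = 6), and differed by 2.70 ± 0.60 (adjusted p = 0.00149). Loaded limbs of vehicle mice had 69.9, 131 and 514 at the same time (n = 7). The contralateral limbs differed from those of vehicle mice by -1.78 ± 0.62, which did not pass (adjusted p = 0.209). Vehicle mice at 2 weeks gave the only negative difference of the 40 (-0.24 ± 0.58, adjusted p = 0.958). They had 18.1, 46.9 and 274 in loaded limbs and 18.4, 62.3 and 197 in contralateral limbs. By edgeR the log2 difference there was 0.03, also without a call. In PTH mice at 2 weeks the difference was 1.24 ± 0.58 (adjusted p = 0.264), and it passed without loaded replicate 6 (0.0456).

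**Figure D3:**
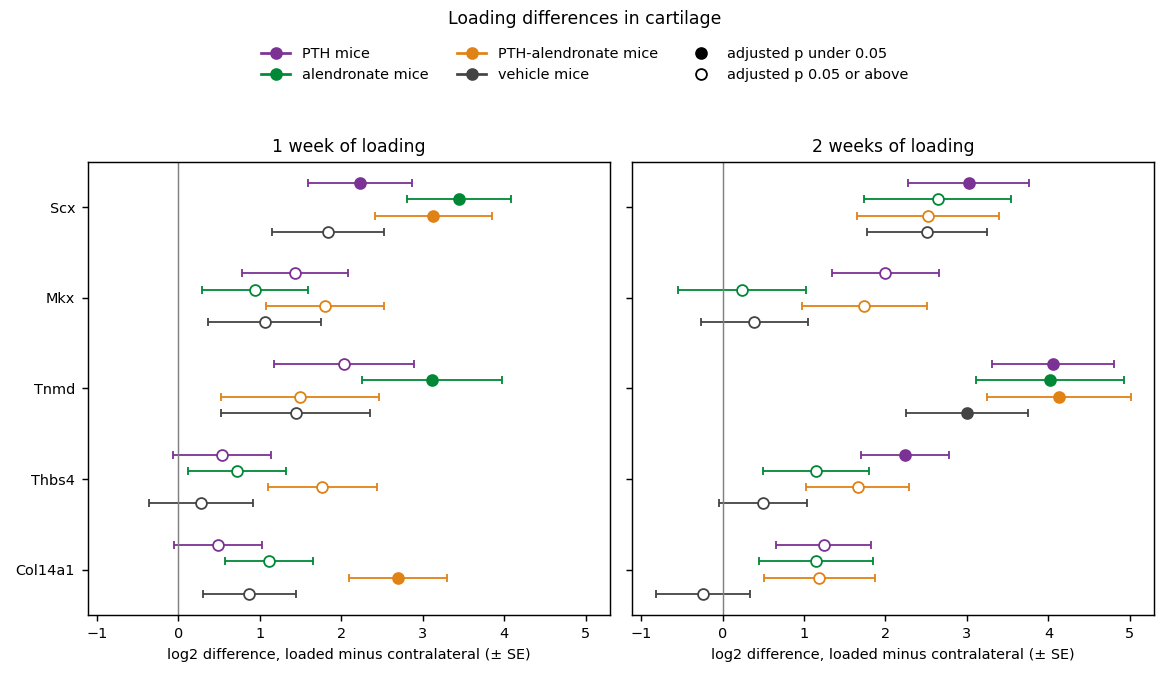
Loading difference of each gene in cartilage, loaded minus contralateral, on the log2(value + 1) scale, at 1 week (left) and 2 weeks (right). Whiskers are standard errors, colours are treatments and filled points passed an adjusted p of 0.05. Scx and Tnmd lie to the right of 0 in all treatments, and 1 of 40 points, Col14a1 in vehicle mice at 2 weeks, lies to the left.

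Within single mice, the member most often higher in the loaded limb was Scx at 1 week and Tnmd, followed by Scx, at 2 weeks. With 28 mice at 1 week and 25 at 2 weeks that had both cartilage libraries, Scx was higher in the loaded limb in 26 and 23 of them, and Tnmd in 21 and 25. The median Tnmd difference within a mouse was 3.36 in log2 at 2 weeks and 2.00 at 1 week, and that of Scx 2.66 and 2.87. Mkx was higher in the loaded limb in 21 and 19 mice, Thbs4 in 19 and 21, and Col14a1 in 21 and 16. All 5 genes were higher together in 10 of 28 mice at 1 week and 13 of 25 at 2 weeks. The exceptions for Scx were 1 PTH and 1 vehicle mouse at each time, with 2.83 in the loaded and 10.7 in the contralateral limb of the PTH mouse at 1 week. In vehicle mice alone Tnmd was higher in 8 of 8 mice at 2 weeks, with a median difference of 2.77.

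Whether a drug changed the loading response was tested as the difference between a treatment's loading difference and that of vehicle mice. No member passed in any of the 30 tests, by limma or by edgeR, and 2 had an unadjusted p under 0.05 in limma. Of all genes, limma called 0.0136% in PTH-alendronate mice at 1 week, 0.00669% in alendronate mice at 2 weeks and 0% in the other 4 comparisons. The 2 members with an unadjusted p under 0.05 were Thbs4 in PTH mice at 2 weeks, with a change of 1.74 ± 0.76 (p = 0.0258, adjusted p = 1), and Col14a1 in PTH-alendronate mice at 1 week, with 1.84 ± 0.83 (p = 0.031, adjusted p = 0.702). For Tnmd at 2 weeks the change was 1.06 ± 1.06 in PTH, 1.02 ± 1.17 in alendronate and 1.13 ± 1.15 in PTH-alendronate mice. The standard errors were about as large as these changes, so the groups cannot tell an equal response from a stronger one. All 3 drug treatments were set against the same vehicle mice. A call in one treatment and none in another therefore does not show that the responses differ.

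Within loaded limbs, drug groups were also set against vehicle mice. Col14a1 was the 1 member called, in alendronate mice at 2 weeks, with 579, 805, 382, 152 and 262 in 5 loaded limbs against 18.1, 46.9 and 274 in 8 loaded limbs of vehicle mice. Only the lowest 2 alendronate limbs fell within the vehicle range. The difference was 2.64 ± 0.66 (adjusted p = 0.00935) in a comparison that called 7.2% of genes. The other loaded limb comparisons called 2.19% of genes in PTH-alendronate mice at 2 weeks, 0.0272% in PTH-alendronate and 0.00679% in alendronate mice at 1 week, and 0% in PTH mice at both times. At 2 weeks every cartilage library of mice given alendronate carried a letter in its sample code, whereas the other mice were numbered, so alendronate and code series cannot be told apart. Thbs4 in the same limbs differed by 1.73 ± 0.61 (adjusted p = 0.071), and Tnmd by 1.89 ± 0.86 (adjusted p = 0.168, and 0.0335 by edgeR). In the same comparison 11 of 12 muscle markers and 2 of 7 synovial markers were called higher. Summed muscle markers were 1720, 14500 and 33800 in alendronate loaded limbs and 136, 447 and 2130 in vehicle loaded limbs, and synovial markers 16100, 29000 and 43300 against 2930, 4250 and 14900. Their part in the Col14a1 difference was not tested. In contralateral limbs no member was called in 30 tests by limma or edgeR, and 1 had an unadjusted p under 0.05 in limma. There limma called 0.0475%, 0.00679% and 0.0747% of genes in PTH, alendronate and PTH-alendronate mice at 1 week, and 0%, 3.54% and 5.09% at 2 weeks.

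Before loading, PTH pretreatment was followed by higher Thbs4 in cartilage, and the other 4 members were higher without passing. Thbs4 had 96.4, 258 and 566 in PTH mice, against 35.4, 72.5 and 276 in vehicle mice (16 libraries of 8 mice each). The median PTH library was near the top of the vehicle range. The difference was 1.5 ± 0.29 (adjusted p = 0.0205), in a comparison that called 0.0794% of 12589 genes higher. It was 0.93 in left limbs alone and 2.07 in right limbs alone, where neither passed (adjusted p = 0.565 and 0.073), and it lost its call without vehicle replicate 11 (0.0502). Col14a1 had 27.2, 167 and 271 in PTH mice and 30.5, 67.9 and 325 in vehicle mice, a difference of 0.88 ± 0.32 (adjusted p = 0.17). PTH replicate 11 held 3630 reads and 1 vehicle library 52539, and without both the Col14a1 difference was 1.09 and passed (adjusted p = 0.00713, and 0.0394 without PTH replicate 11 alone), while 14.6% of genes were then called. Tnmd had 0, 5.56 and 18.3 in PTH mice and 0, 1.84 and 12.8 in vehicle mice (1.05 ± 0.47, adjusted p = 0.284). Scx and Mkx differed by 0.68 ± 0.41 and 0.45 ± 0.37 (adjusted p = 0.449 and 0.606). Summed markers of synovial lining and fibroblasts had a median of 30400 in PTH mice (6350 to 111000) and 12600 in vehicle mice (3920 to 42900), with 0 of 7 genes called. Adipocyte markers had medians of 554 in PTH mice and 342 in vehicle mice, with 0 of 6 tested called. Their part in the Thbs4 difference was not tested.

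**Figure D4:**
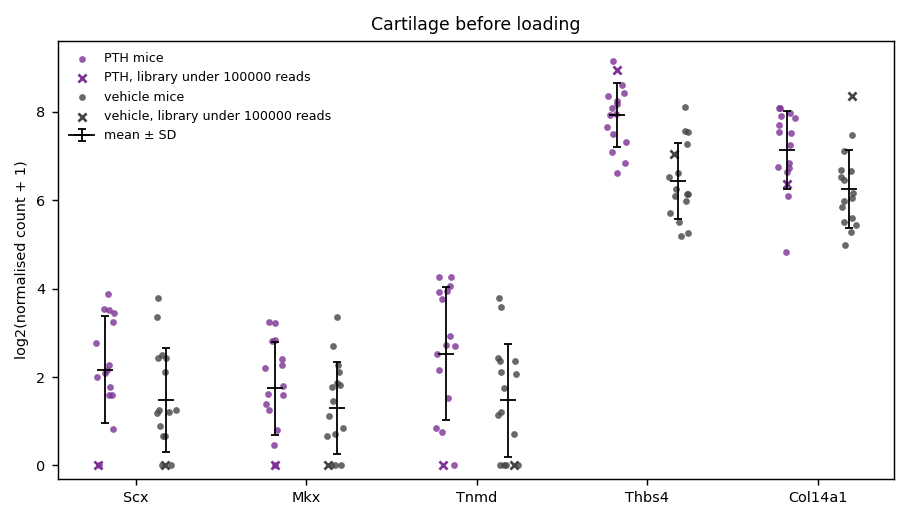
Cartilage libraries of unloaded PTH mice (left of each pair) and vehicle mice (right) on the scale log2(normalised count + 1). Crosses are libraries under 100000 reads, and black marks are the mean and SD. Thbs4 in PTH mice lay higher, with a median of 258 against 72.5 in vehicle mice.

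In cortical bone the loading differences of the 5 genes were mostly positive, 36 of 40, but none passed in limma, where 13 had an unadjusted p under 0.05. The smallest adjusted p, 0.261, belonged to a negative difference, that of Mkx in PTH-alendronate mice at 1 week. The share of genes called was 7.77% in PTH-alendronate mice at 1 week, 0.0527% in PTH mice at 2 weeks and 0% elsewhere. Tnmd had the widest differences. In PTH mice at 1 week it had 17.3, 47.7 and 59.0 in 6 loaded limbs, against 2.94, 2.01, 4.46, 3.92 and 4.4 in 5 contralateral limbs. The limbs did not overlap, and the difference was 3.17 ± 0.93 (p = 0.00114, adjusted p = 0.934). In vehicle mice at 1 week the loaded limbs had 3.94, 244, 62.2 and 47.7, against 0, 2.46 and 4.08 in 6 contralateral limbs (4.04 ± 1.00, p = 0.000144, adjusted p = 0.355). Tests on the recovered reads with edgeR called both (adjusted p = 0.0103 and 1.54e-05), where 0.277% and 0.507% of genes were called. With edgeR Col14a1 was called in the same comparisons and, with Tnmd, in vehicle mice at 2 weeks, where 0.849% of genes were called, and Thbs4 in vehicle mice at 1 week. In 1 loaded limb of PTH mice (replicate 2, a library under 100000 reads) the Tnmd value of 45.5 stood for 1 read. Among the 4 loaded limbs of vehicle mice at 1 week, 1 was likewise a library under 100000 reads, whose Tnmd value stood for 1 read. Of the 4 negative differences, 3 were in PTH-alendronate mice at 1 week, with -0.79 ± 0.90 for Tnmd, -0.78 ± 0.45 for Mkx and -0.16 ± 0.63 for Scx, and 1 was Scx in vehicle mice at 2 weeks (-0.31 ± 0.61). In the loaded limbs of those PTH-alendronate mice 4 of 5 libraries held fewer than 100000 reads, and without such libraries the Tnmd difference was 1.8 ± 1.32 (adjusted p = 1). Tnmd in the same loaded limbs differed by -3.85 ± 1.05 from vehicle loaded limbs (adjusted p = 0.0227, 4.19% of genes called), which was not called without the shallow libraries (-1.04, adjusted p = 1). Both limbs of the same mouse were sequenced from cortical bone in 17 mice at each time, and Tnmd was higher in the loaded limb in 12 and 14 of them.

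In cancellous bone 20 of 40 loading differences were positive and none passed (smallest adjusted p = 0.656 by limma, 0 called by edgeR, and 1 unadjusted p under 0.05). The share of genes called was 0.0838% in PTH-alendronate mice and 0.00699% in alendronate and in vehicle mice at 1 week, 0.00671% in PTH mice at 2 weeks, and 0% elsewhere. Tnmd was higher in the loaded limb in 13 and lower in 11 of 35 mice. Scx, Mkx and Tnmd were too low to be tested in cancellous bone before loading and in all lymph node tables, and Thbs4 in lymph node before loading. In lymph node no member passed in limma (smallest adjusted p = 0.179, with 2 unadjusted p under 0.05), where 0% of genes were called. By edgeR, which called 4.01% of genes there, Thbs4 and Col14a1 were lower on the loaded side in vehicle mice at 1 week, by -4.84 and -1.24 (adjusted p = 0.000396 and 0.0433). That group's contralateral side includes the library whose markers went against its label, which had 26.5 for Scx, 54.6 for Tnmd, 278 for Thbs4 and 114 for Col14a1. The other 3 libraries there had 24.8, 33.1 and 38.1 for Col14a1 and 0 for Scx and Tnmd. Without that library edgeR gave 1.34 for Thbs4 and -0.60 for Col14a1 (adjusted p = 1 for both) and called 0% of genes. The limma difference of Thbs4 was 0.66 ± 0.59 without it and -1.20 ± 0.80 with it. Before loading, PTH and vehicle mice gave no call for any tested member in bone or lymph node by limma or edgeR, and none had an unadjusted p under 0.05 in limma. In limma these comparisons called 0.0076% of genes in cortical bone, 0% in cancellous bone and 0.734% in lymph node.

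Other tendon matrix genes also rose in loaded cartilage. In a list of 16 tendon matrix genes without the members, 10 rose in PTH, 11 in alendronate, 13 in PTH-alendronate and 10 in vehicle mice at 1 week, and none fell. At 2 weeks 13, 11, 8 and 9 rose in the same order of treatments, again with none lower. Of all genes, 2.33%, 4.41%, 7.13% and 1% were called higher at 1 week and 2.76%, 2.59%, 3.33% and 0.95% at 2 weeks. The list was chosen with earlier results of these data known, so these counts are no independent evidence. The list's median difference was 1.59 at 1 week and 1.68 at 2 weeks in vehicle mice, where the medians of all genes tested were -0.04 and 0.01. Across the 4 treatments and both times it lay between 1.39 and 2.51. Fibril-forming collagens and their partners led: Col3a1, Col5a1, Col5a2, Col1a1, Col12a1 and the small proteoglycan gene Fmod were called in 8 of 8 comparisons. In vehicle mice at 1 week Col5a1 had 1160, 1420 and 2340 in loaded limbs and 235, 256 and 368 in contralateral limbs, which did not overlap (2.41 ± 0.30, adjusted p = 3.44e-07). Bgn, a small proteoglycan of connective tissue, and Col3a1 followed with 1.64 ± 0.27 and 2.65 ± 0.45 (adjusted p = 0.000138 and 0.000207). At 2 weeks Col3a1 led with 3.16 ± 0.48 (adjusted p = 4.84e-05), followed by Col12a1 with 3.06 ± 0.48 and Col5a1 with 2.33 ± 0.37 (5.71e-05 for both). Dcn, Dpt and Prelp, matrix genes of the same list, were called in 1, 1 and 0 of 8 comparisons.

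**Figure D5:**
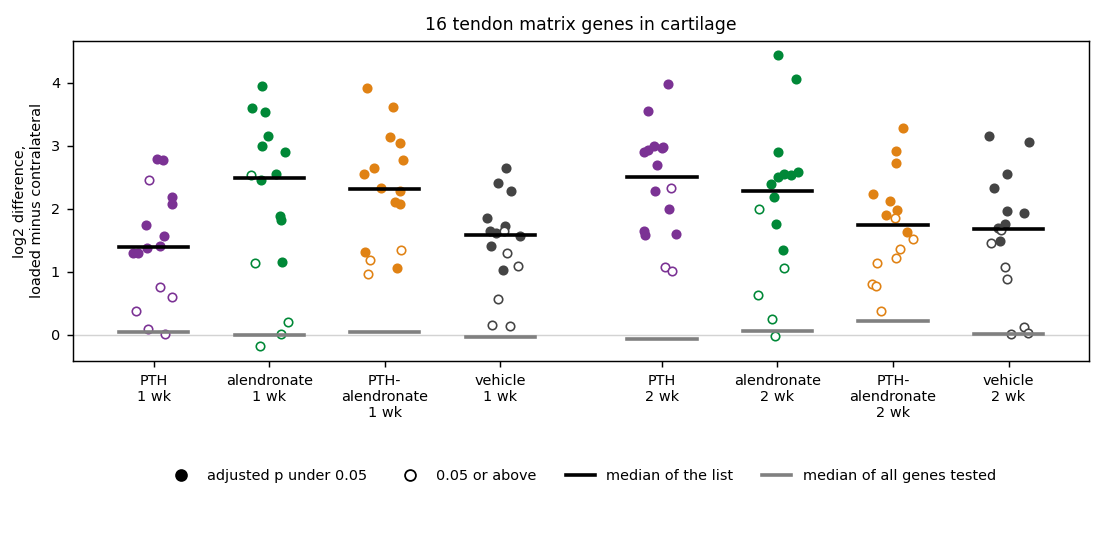
Loading differences in cartilage of the 16 tendon matrix genes, loaded minus contralateral, on the log2(value + 1) scale, by treatment and time. Filled points passed an adjusted p of 0.05, black bars are the median of the list and grey bars that of all genes tested. The list's medians lie between 1.39 and 2.51, and those of all genes between -0.07 and 0.21.

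Relatives of the matrix members also differed between the limbs. Thbs2, a trimeric thrombospondin, rose in 8 of 8 comparisons by 2.05 to 3.54, whereas Thbs1 was called in none. In vehicle mice Thbs2 had 170, 203 and 468 in loaded limbs and 31.7, 60.7 and 74.9 in contralateral limbs at 1 week (2.05 ± 0.52, adjusted p = 0.0264), and differed by 2.88 ± 0.48 at 2 weeks (0.000132). Thbs3, a pentameric thrombospondin, was called in 4 of 8 comparisons, with differences of 1.38 to 2.99 over the 8. Comp, the cartilage thrombospondin, was called in 3 of 8, among them vehicle mice at 2 weeks (1.76 ± 0.48, adjusted p = 0.0466). Among 8 tested collagens of the Col14a1 class, which have interrupted triple helices, Col16a1 and Col12a1 rose in all 8 comparisons. In vehicle mice Col16a1 differed by 1.86 ± 0.35 at 1 week (adjusted p = 0.000804) and 2.59 ± 0.39 at 2 weeks (4.84e-05), and Col9a1, a chain of cartilage collagen IX, by 4.21 ± 0.74 at 2 weeks (0.000244). Lect1, which encodes chondromodulin, the relative of tenomodulin in cartilage, was not called in any of the 8, at 0.26 ± 0.82 and 2.40 ± 0.81 in vehicle mice (adjusted p = 0.985 and 0.162).

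Of 19 regulators and progenitor genes of tendon, such as Egr1, Tgfb2 and Gdf5, up to 4 were called higher in a comparison. In PTH mice 0 rose at 1 week and 3 at 2 weeks, in alendronate mice 2 and 2, in PTH-alendronate mice 4 and 4, and in vehicle mice 0 and 0. Of all genes, 2.33% and 2.76% were called higher in PTH mice and 4.41% and 2.59% in alendronate mice. The shares were 7.13% and 3.33% in PTH-alendronate mice and 1% and 0.95% in vehicle mice. Among the regulators 1 fell, Gli1, a target of hedgehog signalling, in alendronate mice at 1 week (-1.27 ± 0.39, adjusted p = 0.0353). Sox9, the chondrogenic factor that is co-expressed with Scx in tendon insertions, was called in 4 comparisons and differed by 1.02 ± 0.34 and 1.29 ± 0.42 in vehicle mice (adjusted p = 0.138 and 0.135). Gdf5, a growth factor of joints and tendon, was called in 3 and reached 3.67 ± 0.72 in alendronate mice at 2 weeks (adjusted p = 0.00108). In vehicle mice it differed by 1.36 ± 0.59 and 1.26 ± 0.59, and Etv4, a target of fibroblast growth factor signalling, by 1.53 ± 0.55 and 1.28 ± 0.55, with none called.

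Before loading, PTH mice had positive differences in 15 of 15 tested tendon matrix genes and 16 of 16 tested regulators, with medians of 0.64 and 0.54 against -0.12 for all genes, and none of them passed. Those of smallest p were Dpt (1.31 ± 0.34), Dcn (1.19 ± 0.32) and Lum (1.16 ± 0.32), with adjusted p of 0.0743, 0.076 and 0.078. Pdgfra, a receptor of fibroblasts, followed among the regulators with 0.96 ± 0.27 (adjusted p = 0.079). Bmp4 and Tgfb3, both growth factors, were at 0.80 ± 0.29 and 0.90 ± 0.43.

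Markers of other cell types also differed between the limbs of cartilage, not all in the members' direction. Of all genes, 1% to 7.13% were called higher at 1 week and 0.95% to 3.33% at 2 weeks. Of 8 chondrocyte markers, 1 rose in PTH, 7 in alendronate (where 1 fell), 6 in PTH-alendronate and 2 in vehicle mice at 1 week, and 7, 4, 5 and 4 at 2 weeks. Their summed level in vehicle mice at 2 weeks was 2190, 5170 and 17400 in loaded limbs and 1650, 2520 and 4320 in contralateral limbs. Muscle markers were lower in loaded limbs at 1 week, with 2 of 12 called in vehicle and 3 of 12 in PTH-alendronate mice, and the vehicle sums were 89.3, 380 and 28600 in loaded limbs against 369, 35500 and 95600 in contralateral limbs. At 2 weeks no muscle marker was called, and the median difference was 0.85 in PTH, 0.93 in alendronate, 0.53 in PTH-alendronate and -1.08 in vehicle mice. At 1 week 7 of 7 adipocyte markers fell in alendronate mice, 3 of 7 in PTH-alendronate mice and 3 of 7 in vehicle mice, and the vehicle sums had medians of 490 in loaded limbs and 1960 in contralateral limbs. In either direction, 6.42% of all genes were called in alendronate mice and 10.4% in PTH-alendronate mice at that time. Markers of synovial lining and fibroblasts were called in at most 1 of 7 in any comparison. No listed marker of these types was at 0 in all libraries of a cartilage group. The part of these cell types in the members' differences was not tested.

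Within groups, members varied together to different degrees. After each group's mean was removed, Pearson's r across 143 cartilage libraries of at least 100000 reads was averaged over the 3 cartilage tables. These libraries share depth and dissection as sources of variation, and limbs of one mouse are not independent. Thbs4 and Col14a1 were the closest pair (mean r = 0.62), and Scx and Tnmd the least close (0.32). Among 8599 genes, those most like Scx were Fndc1 (0.69), Ryk (0.66) and Trps1 (0.64). Thbs4 varied most closely with Emp1 (0.80), Rnase4 (0.80) and Dcn (0.79), and Col14a1 with Dpt (0.79), Fbln7 (0.77) and Aspn (0.75), the last and Dcn being small leucine-rich proteoglycans. For Tnmd they were Timp2 (0.61), Ogn (0.60) and Thbs2 (0.58). Mkx had the lowest values, with Itgbl1 (0.55), Thbs4 (0.54) and Bmpr1a (0.53). Against the summed markers, Tnmd had r = 0.45 with muscle at 2 weeks (n = 54) and 0.02 at 1 week (n = 59), and 0.56 with adipocyte markers before loading (n = 30). Thbs4 had 0.66 with chondrocyte markers and -0.73 with lymphocyte markers at 1 week, and 0.64 with synovial markers at 2 weeks. Col14a1 had 0.69 with synovial markers at 2 weeks and -0.68 with lymphocyte markers before loading, and Scx 0.67 with synovial markers before loading. Over all marker lists, members and times r ran from -0.73 to 0.69.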

How the data were processed

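Gene counts from 3′ RNA sequencing of mouse tibial cartilage, bone and lymph node were deposited by the authors as normalised counts, a signal in which each library's counts are divided by one factor, in 12 tables scaled separately. The submitters' processing notes name Trimmomatic 0.39, STAR, edgeR and build mm10, without their roles. All values were whole multiples of the worth of 1 read within 0.01, which gave back whole reads for 100% of values. The 27 entries per table that spreadsheet software had turned into dates (0.126% to 0.159% of reads) were left out. Another 44 samples are not analysed here. Groups and limbs were taken from the labels, and animals from sample codes in the titles. By these codes the 9 loaded cortical libraries of alendronate mice at 1 week came from 8 mice. The code of 1 of these libraries lies where codes of right limbs lie, and its label was kept.

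Log2(deposited value + 1) was fitted per table with limma 3.58.1 (trend) in R 4.3.3, for genes with at least 1 count per 1000000 reads (CPM) in as many libraries as the smallest group. The animal was a random block with a correlation estimated on 2000 genes (statmod 1.5.0). A limb term was added before loading, and a code series term in bone after loading. Benjamini-Hochberg adjusted p under 0.05 over all genes of a table is a call. In cartilage, loaded and contralateral libraries with the same replicate number came from the same animal in 28 of 29 cases at 1 week and 25 of 25 at 2 weeks, by their codes, so limb comparisons there are paired. Between treatments the numbers pair nothing. EdgeR 4.0.16 (quasi-likelihood, TMM) was run on the recovered reads, and both tests were checked on simulated counts. Other alternatives were no filter, a pseudocount of 0.25, quantile scaling, the replicate block, leaving out libraries under 100000 reads and leaving out each library. The 5 genes and the lists of tendon, regulator and marker genes were chosen with earlier results of these data known. Named list genes are the 3 of smallest p per list in vehicle mice at each time or before loading, and the 3 genes most like each member by mean r among those with a mean log2 value of at least 3. Other list genes were named after their values were seen. Replicates are separate limbs, 2 of which can share a mouse.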

Additional observations from a re-analysis of the deposited data

Results flagged for a closer look

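In 13 of 160 groups of 4 to 10 libraries, 1 library's log2 value lay far from the others of its group by Dixon's test, which chance alone gives in about 1 of 20 groups. In cartilage, Scx in loaded limbs of PTH mice was 2.83 in replicate 6 at 1 week (others 38.7 to 128) and 1.14 in replicate 6 at 2 weeks (others 35.9 to 146). In contralateral limbs Scx was 0 in replicate 1 of PTH mice at 2 weeks (others 3.58 to 13.9) and 0 in replicate 4 of alendronate mice at 1 week (others 6.53 to 22.7). Scx was 3.25 in loaded replicate 7 of vehicle mice at 1 week (others 29.0 to 109). Thbs4 was 26.4 in the same loaded replicate 6 of PTH mice at 1 week (others 313 to 1650).

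In cortical bone, Scx was 2.91 and Mkx 0.323 in loaded replicate 1 of PTH-alendronate mice at 1 week, where the other 4 libraries had no read of either gene and held fewer than 100000 reads in all each. Thbs4 was 0 in 4 cortical libraries. These were contralateral replicate 7 of PTH-alendronate mice at 1 week (others 11.0 to 38.6), loaded replicate 2 of PTH mice at 1 week (others 41.5 to 293), loaded replicate 10 of alendronate mice at 1 week (others 22.7 to 199) and contralateral replicate 5 of alendronate mice at 2 weeks (others 20.2 to 138). Col14a1 was also 0 in that loaded replicate 2 of PTH mice (others 17.3 to 97.7), a library under 100000 reads.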

How the results depend on the processing

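Over 260 alternative values of single members in cartilage, 240 kept their direction and their side of the threshold, 11 came to pass, 7 no longer passed and 2 reversed without a call: Col14a1 in vehicle mice at 2 weeks (0.03 by edgeR) and Mkx in alendronate mice at 2 weeks (-0.06 with the replicate block). The 11 cartilage loading calls became 15 by edgeR, 13 with quantile scaling, 12 with the block, and 10 without the filter, with a pseudocount of 0.25 or without libraries under 100000 reads. Scx in PTH mice at 1 week was not called without the filter (adjusted p = 0.0605) or with that pseudocount (0.0821). Before loading, the 1 cartilage call became 2 by edgeR, with quantile scaling and without shallow libraries, and 0 with the block or in left or right limbs alone. Genes called there numbered 20, against 1502 by edgeR, 1107 with quantile scaling, 1858 without shallow libraries, 4 with the smaller pseudocount, 1 in right limbs and 0 in left limbs or with the block. In PTH mice at 2 weeks 537 genes became 958 by edgeR and 998 with quantile scaling. In PTH-alendronate mice 571 became 70 by edgeR, 90 without shallow libraries and 365 with quantile scaling. In alendronate mice 588 became 947 without shallow libraries, and in vehicle mice 170 became 302 by edgeR and 291 with quantile scaling. The 1 call between loaded cartilage limbs became 2 by edgeR and 0 with the replicate block. In cortical bone the 0 loading calls became 7 by edgeR, 2 with quantile scaling, 1 without shallow libraries, and 1 with the replicate block. The call with the block was lower in loaded limbs, for Mkx in PTH-alendronate mice at 1 week (-1.13, adjusted p = 0.0338), where 4 of 5 loaded libraries were shallow and same-numbered cortical libraries came from 1 mouse in 3 of 17 cases. In lymph node 0 became 2 by edgeR, and 0 without the library that stands apart. The 1 call between loaded limbs of bone and lymph node, Tnmd in cortical bone, was lost by edgeR, with quantile scaling, without shallow libraries and with the block. EdgeR and quantile scaling each called Col14a1 instead, in lymph node of alendronate mice at 2 weeks. It was higher there than in vehicle mice by 1.18 and 0.99 (adjusted p = 0.00105 and 0.00417), where 31.2% and 27.7% of genes were called. There too, alendronate and code series cannot be told apart. The replicate block changed no other call of the 5 genes, and between treatments the mice share only a number.

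Leaving out each library in turn, which was added after seeing the data for drug-treated mice, gave 0 to 2 member calls before loading. In loaded cartilage it gave 0 to 1 in PTH, 1 to 2 in alendronate, 2 to 4 in PTH-alendronate and 0 to 0 in vehicle mice at 1 week, and 3 to 5, 1 to 2, 0 to 4 and 0 to 2 at 2 weeks. It gave 0 in vehicle mice at 1 week in both bones and lymph node. The cause of these shifts was not tested. Low counts limit Scx, Mkx and Tnmd in cartilage before loading, where a library holds a few reads of each. In contralateral cartilage at 1 week, group medians were 13 to 25 reads of Tnmd and 8 to 14.5 of Scx. For Mkx they were 1.5 to 4 reads. At 2 weeks they were 4 to 7.5 reads of Tnmd, 3 to 7.5 of Scx and 1 to 5 of Mkx.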
